A study of Homo sapiens with 6 samples.

Results

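The antiviral effectors described here are 10 genes whose proteins act directly on viruses or on virus-infected cells, out of 19937 genes in the count table. They are OAS1, OAS2, OAS3, OASL, MX1, MX2, RSAD2, EIF2AK2, BST2 and SAMD9, and each was found in the table by its Ensembl identifier. The list was selected on its function and from earlier results on these same libraries, in which interferon-induced genes were lower after SQLE silencing. The difference between the groups in these 10 genes is therefore given as a description, and no p-value is given for any of them. How many of them passed the threshold applied to all genes is stated only beside how many of all genes did. The RNA came from U2OS, an established human osteosarcoma cell line, in 6 poly(A) libraries. The 3 shSQLE libraries carried a hairpin against SQLE, which encodes squalene epoxidase, a rate-limiting enzyme of cholesterol synthesis, and the 3 shControl libraries carried a scrambled hairpin. Both populations had a pGIPZ hairpin vector delivered by lentivirus packaged in HEK293T cells, and both were selected for 2 weeks in puromycin at 2 μg/mL, so that virus infection and drug selection were common to the 2 groups. The sources used here name neither the hairpin sequenced nor separate cultures for the libraries of a group, so the SDs measure the spread among libraries of what may be 1 population per hairpin.

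Interferons are secreted when a cell senses foreign nucleic acid. Type I and type III interferons bind separate receptors, and both signal through JAK kinases to a complex that holds STAT2 and IRF9, which binds the interferon-stimulated response element in promoters and switches on antiviral genes. Some of these genes are also switched on directly by IRF3, without interferon. OAS1, OAS2 and OAS3 are activated by double-stranded RNA and make short oligoadenylates, which serve as a signal inside the infected cell. OASL is related to them in sequence but does not make oligoadenylates, and it enhances signalling by the RNA sensor RIGI. MX1 and MX2 are dynamin-like GTPases, RSAD2 (viperin) is a radical SAM enzyme that makes a chain-terminating nucleotide, EIF2AK2 (PKR) phosphorylates the initiation factor eIF2 and stops translation, BST2 (tetherin) holds budding virions at the cell surface, and SAMD9 restricts poxviruses.

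Positions are those of hg38. OAS1 (chromosome 12, 112905856 to 112933219), OAS3 (112938051 to 112976460) and OAS2 (112978395 to 113011723) stand in a row on the + strand within 105.868 kb, and OASL (121017763 to 121039246, - strand) lies 8.01 Mb further along the same chromosome. MX2 (chromosome 21, 41361999 to 41409393) and MX1 (41420020 to 41470071) are neighbours on the + strand. RSAD2 (6865557 to 6898239, + strand) and EIF2AK2 (37099210 to 37157522, - strand) are on chromosome 2, BST2 (17402939 to 17405630, - strand) on chromosome 19 and SAMD9 (93099513 to 93118023, - strand) on chromosome 7. Whether the counting used the strand is not given in the sources used here, and 3 of the genes share part of their locus with a gene on the opposite strand that is also in the table. RSAD2 overlaps CMPK2, EIF2AK2 overlaps GPATCH11 and MX1 overlaps TMPRSS2. If the strand was not used, reads from a stretch that a pair shares could not be told apart. GPATCH11 ends at 37099244, just inside EIF2AK2, and TMPRSS2 had 3, 1 and 0 counts in shControl and 0 in each shSQLE library.

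Promoter windows, from 250 bases before to 50 bases after a start site, were available in RefSeq (GRCh38.p14) for 7 of the 10 genes. OASL, OAS2 and MX2 had no entry. The windows were searched on both strands for the core of the interferon-stimulated response element, written as GAAA, 2 bases of any kind and GAAA again. In 6 of the 7 genes at least 1 window held a match, against 4.38% of the 27305 genes of the RefSeq table, and of single windows 7 of 10 held one, against 3.57% of all windows. The genes were listed as interferon-induced effectors, so such matches follow in large part from the choice of list and nothing is read from these shares. The stretches below are shown because they hold the kind of sequence through which interferon-induced genes are switched on. Each is read 5′ to 3′ on the strand of its gene, with the matching bases in capitals and 20 bases on either side.

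OAS3, chr12:112938311-112938360, + strand: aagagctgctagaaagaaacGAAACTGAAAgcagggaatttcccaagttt
OAS3, chr12:112938442-112938491, + strand: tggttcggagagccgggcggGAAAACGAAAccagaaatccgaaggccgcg
EIF2AK2, chr2:37156957-37157006, - strand: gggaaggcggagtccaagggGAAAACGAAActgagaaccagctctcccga
SAMD9, chr7:93118086-93118135, - strand: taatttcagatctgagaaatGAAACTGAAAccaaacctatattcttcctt
BST2, chr19:17405725-17405780, - strand: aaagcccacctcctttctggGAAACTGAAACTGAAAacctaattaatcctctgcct
MX1, window 1, chr21:41420549-41420598, + strand: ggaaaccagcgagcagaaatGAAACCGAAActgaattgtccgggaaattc
MX1, window 3, chr21:41431834-41431883, + strand: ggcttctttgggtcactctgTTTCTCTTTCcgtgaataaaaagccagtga
RSAD2, window 2, chr2:6877612-6877661, + strand: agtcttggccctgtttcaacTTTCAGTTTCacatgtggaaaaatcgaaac

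OAS3 held 2 separate matches, the nearer of them 12 bases before its start site. In EIF2AK2 the match began 6 bases before the start site and ran across it. BST2 held 2 overlapping matches that share the middle GAAA, 130 bases before its start, and SAMD9 held 1 match 136 bases before its start. In window 3 of MX1 and in RSAD2 the match was on the opposite strand, so that the capitals read as its reverse complement. The window of OAS1 held no match. A shorter motif, the gamma-activated site bound by STAT dimers (TTCNNNGAA, the same on both strands), was found in 3 of the 7 genes, OAS1, MX1 and BST2, against 9.38% of the genes of the table, and in MX1 and BST2 it overlapped a match to the response element. These are matches of letters within short windows, not measured binding, and nothing is read from the share of the genes that hold them.

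The libraries held from 12212378 to 14393292 counts. SQLE, the targeted gene, fell from 1349, 1867 and 1924 normalized counts to 229, 204 and 219 (log2 fold change of -2.98 with an SE of 0.17, edgeR quasi-likelihood test with Benjamini-Hochberg adjusted p = 0.000299). A normalized count is the count scaled to the mean of the TMM-adjusted library sizes, and a library with 3 or fewer counts of a gene is called at the floor. shControl replicate 1 stood apart from the other controls. Its counts differed from those of shControl replicates 2 and 3 with a chi-square statistic of 54.3 and 64.2 per degree of freedom, where sampling alone would keep it near unity, against 2.84 between replicates 2 and 3, and a smooth trend on the GC content and length of transcripts took up more of the variance of its deviations than of those of shControl replicates 2 and 3 (26.1% and 34.5%). Of 8 mesenchymal markers, 7 passed the filter and VIM had 38665 ± 3524 normalized counts in shControl (SD, n = 3). Markers of this cell type also moved with the groups. FN1 and COL1A1 were lower in shSQLE past the adjusted p (log2 fold changes -2.88 and -0.65), 6 of the 7 were below 0 and their median was -0.29. Of 12 leukocyte markers, 6 had 0 counts in all libraries, among them PTPRC and both plasmacytoid dendritic cell markers, CLEC4C and LILRA4. The summed level of the leukocyte list was 31.4 to 35.8 normalized counts in shControl and 10.3 to 22.7 in shSQLE, that of the 4 endothelial markers 12.7 to 17.7 and 4.11 to 8.81, and that of the 5 epithelial markers 83.2 to 111 and 94.6 to 114. The part of these marker differences in the results below was not tested.

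The 10 genes differed widely in level, and 4 of them, OASL, EIF2AK2, SAMD9 and OAS3, made up most of the signal. Per kb of the canonical transcript, OASL had 490 ± 162 normalized counts in shControl (SD, n = 3), more than 83.4% of the genes tested. EIF2AK2 followed at 122 ± 29.6, SAMD9 at 116 ± 39.4 and OAS3 at 72.0 ± 1.06 normalized counts per kb. The range of OASL over the control libraries (384 to 677) lay above that of every other gene of the list. The ranges of EIF2AK2 (88.4 to 143), SAMD9 (71.4 to 146) and OAS3 (71.2 to 73.2) followed, and SAMD9 overlapped both of the others while EIF2AK2 and OAS3 did not overlap. The other 6 genes were far lower in shControl, from 10.3 ± 4.28 normalized counts per kb for OAS1 to 0.308 ± 0.269 for OAS2, and OAS1, RSAD2, MX1, BST2 and MX2 each exceeded fewer than 10% of the genes tested.

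**Figure D1:**
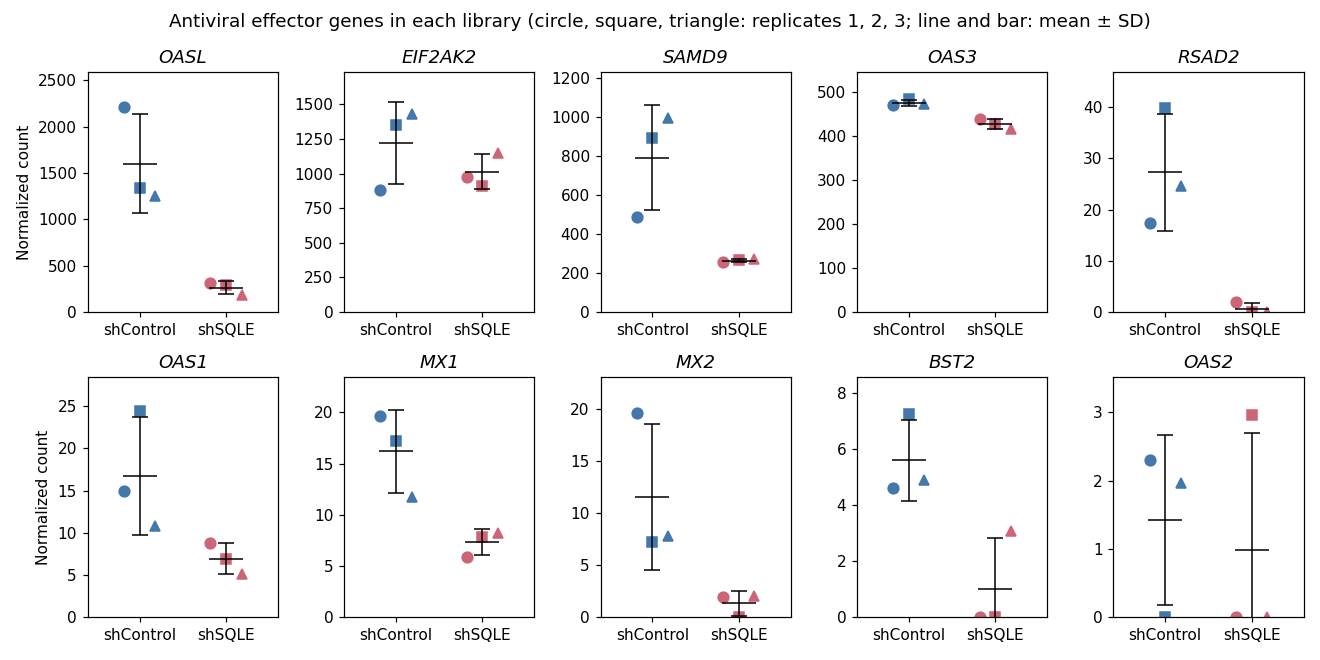
Normalized counts (vertical axes, linear, each starting at 0) of the 10 antiviral effector genes in shControl and shSQLE, 1 panel per gene, with circle, square and triangle for replicates 1, 2 and 3 and the mean ± SD in black. In 8 panels every shSQLE point lies below every shControl point, as in 12.1% of all genes tested, and in EIF2AK2 and OAS2 the points of the groups overlap.

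Of the OAS family, OASL was far lower in shSQLE and OAS3 differed little. In bulk RNA, fewer cells that express a gene and less of its RNA per cell cannot be told apart. The normalized count of OASL was 2214, 1342 and 1256 in control libraries 1 to 3, and 317, 294 and 183 in the shSQLE replicates. The groups were far apart, and the lowest control library held several times the counts of the highest shSQLE library. The shSQLE mean reached 16.5% of the control mean (log2 fold change -2.60, SE 0.29). In the fits that left out 1 library the value lay between -2.75 and -2.29, the latter without shControl replicate 1, in which OASL was highest.

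OAS3 had 470.0, 483 and 472 normalized counts in control libraries 1 to 3 and, in turn, 438, 427 and 415 in the shSQLE replicates. The groups did not overlap, but the step between them was small, with a shSQLE mean at 89.8% of the control mean (log2 fold change -0.15, standard error 0.11). The libraries of a group lay close together, with SDs of 6.99 and 11.2 normalized counts. With GC content and length taken out its value was -0.09, and with library size as the only scaling -0.20.

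OAS1, the first synthetase of the cluster, was near the limit of detection, with 13, 27 and 11 counts in control libraries 1 to 3 and, in turn, 9, 7 and 5 counts in the shSQLE replicates. The groups did not overlap, and the log2 fold change was -1.26 (standard error 0.42), with a range of -1.49 to -0.86 in the fits without 1 library. OAS2 had 2, 0 and 2 counts in shControl and 0, 3 and 0 in shSQLE. All 6 libraries were at the floor for OAS2, so that no change in it was detectable at this depth.

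The make-up of the OAS family by transcript is given next. Summed per kb, the 4 genes had 758, 499 and 463 normalized counts in control libraries 1 to 3 and, in turn, 169, 159 and 122 in the shSQLE replicates. OASL made up 82.3% to 89.3% of that sum in shControl and 45.9% to 57.5% in shSQLE. The share of OAS3 went from between 9.40% and 15.5% to between 39.3% and 51.6%, although its own level was slightly lower. OAS1 held between 1.21% and 3.20% in every library.

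EIF2AK2, the kinase that shuts down translation on double-stranded RNA, had 882, 1352 and 1427 normalized counts in control libraries 1 to 3 and, in turn, 977, 909 and 1151 in the shSQLE replicates. The groups overlapped. shControl replicate 1 was the lowest of all 6 libraries, and the other controls were the highest. The shSQLE mean reached 82.9% of the control mean, with a log2 fold change of -0.27 (standard error 0.19) that was -0.46 without shControl replicate 1 and -0.13 with GC content and length taken out. The transcript of EIF2AK2 is long and poor in GC (9975 nt, 38.5% GC), and in the bin of genes poorest in GC (30.7% to 40.6%) the median ratio of shControl replicate 1 to the mean of replicates 2 and 3 was 0.663, against 0.635 for EIF2AK2.

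SAMD9 had 486, 892 and 994 normalized counts in control libraries 1 to 3 and, in turn, 256, 267 and 270.3 in the shSQLE replicates. The shSQLE libraries were nearly equal (SD 7.75), whereas shControl replicate 1 lay far below the other controls and still above every shSQLE library. The shSQLE mean reached 33.4% of the control mean, and the log2 fold change of -1.58 (SE 0.25) was -1.83 without shControl replicate 1 and -1.44 with GC content and length taken out. Its transcript is the poorest in GC of the 10 (36.0%), and its ratio of shControl replicate 1 to the mean of the others was 0.516.

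**Figure D2:**
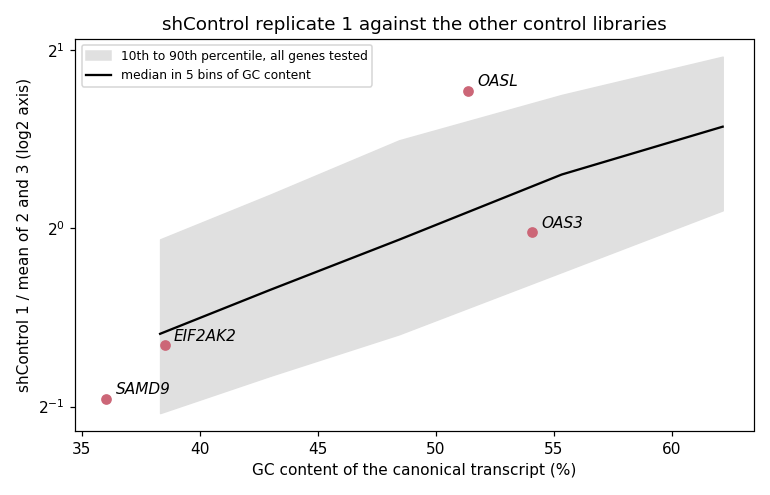
Ratio of the normalized count in shControl replicate 1 to the mean of replicates 2 and 3 (log2 axis) against the GC content of the canonical transcript in percent, for the 4 abundant members (points) and all genes tested (line: median in 5 bins; grey: 10th to 90th percentile). EIF2AK2 and SAMD9 lie at the low end where the median is 0.663, and OASL, at 1.70, lies above the grey band.

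Among the 4 abundant genes, OASL deviated in the opposite direction in shControl replicate 1, at 1.70 times the mean of the other controls, whereas the bin of genes to which its transcript belongs by GC content (51.4% GC) had a median of 0.956 and a 90th percentile of 1.41. OAS3 (54.1% GC) was at 0.985. The 4 genes did not shift together among the control libraries. SAMD9 and EIF2AK2 were lower in replicate 1, where OASL was higher and OAS3 was near the other controls. Among the genes with few counts the ratio ran from 0.539 in RSAD2 to 2.60 in MX2, and counting error is large in these.

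The dynamin-like GTPases and RSAD2 were detected with few counts, most of them in shControl. RSAD2 had 15, 44 and 25 counts in control libraries 1 to 3 and, in turn, 2, 0 and 0 in the shSQLE replicates. All shSQLE libraries were at the floor. Corrected for library size, the summed counts of 84 and 2 stood in a ratio of 42.2, with an exact 95% interval of 11.3 to 355 that covers counting error only. The fitted log2 fold change of RSAD2 (-5.14, and -7.79 without shSQLE replicate 1) rests on those 2 reads and is not a measured size.

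MX1 had 17, 19 and 12 counts in control libraries 1 to 3 and, in turn, 6, 8 and 8 in the shSQLE replicates, without overlap after scaling (log2 fold change -1.12, standard error 0.35). Its neighbour MX2 had 17, 8 and 8 counts in shControl and 2, 0 and 2 in shSQLE, where every library was at the floor. The ratio of the summed counts of MX2 was 8.30 (exact 95% interval 2.95 to 32.2). BST2, the membrane tether, had 4, 8 and 5 counts in shControl and 0, 0 and 3 in shSQLE, a ratio of 5.70 with an interval of 1.65 to 30.4. Intervals this wide, which cover counting error only, leave the sizes of the differences in MX2 and BST2 poorly determined.

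**Figure D3:**
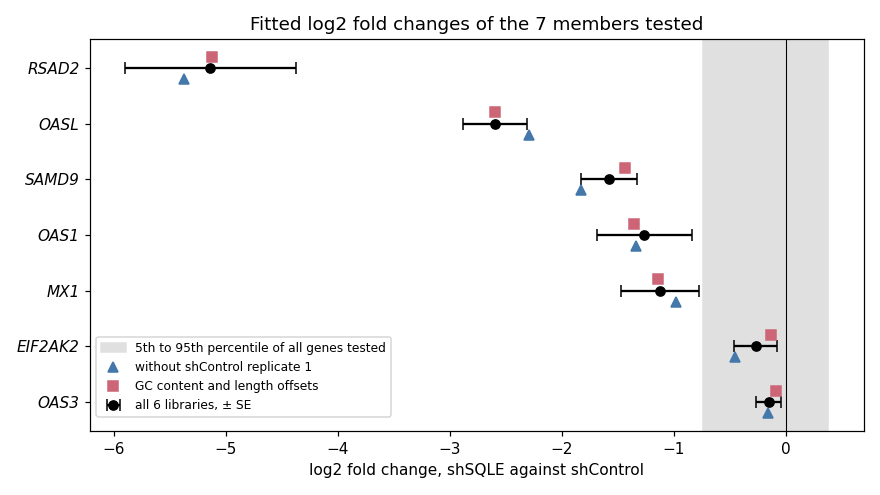
Fitted log2 fold change of shSQLE against shControl for the 7 antiviral effector genes that passed the filter on low counts (black, bars: standard error), with the values without shControl replicate 1 (triangles) and with GC content and length taken out (squares). Grey spans the 5th to 95th percentile of all genes tested (-0.75 to 0.38), inside which only EIF2AK2 and OAS3 lie in all 3 fits shown.

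Set side by side, 7 of the 10 genes passed the filter on low counts, and RSAD2, OAS1 and MX1 did so through their control libraries alone. OAS2, MX2 and BST2 did not pass. Of the 7, 3 (OASL, RSAD2 and SAMD9) were past an adjusted p of 0.05 and lower, where 2.84% of the 12450 genes tested were, and the groups did not overlap in 6 of them, where 12.1% of the genes tested were lower in every shSQLE library. With the 3 genes that did not pass, the groups did not overlap in 8 of 10. Since this contrast was known when the list was made, nothing is read from these counts. The values spread from -5.14 for RSAD2 to -0.15 for OAS3, with a median of -1.26 over the 7 and -1.42 over all 10 without a filter, beside -0.01 over all genes in either case.

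**Figure D4:**
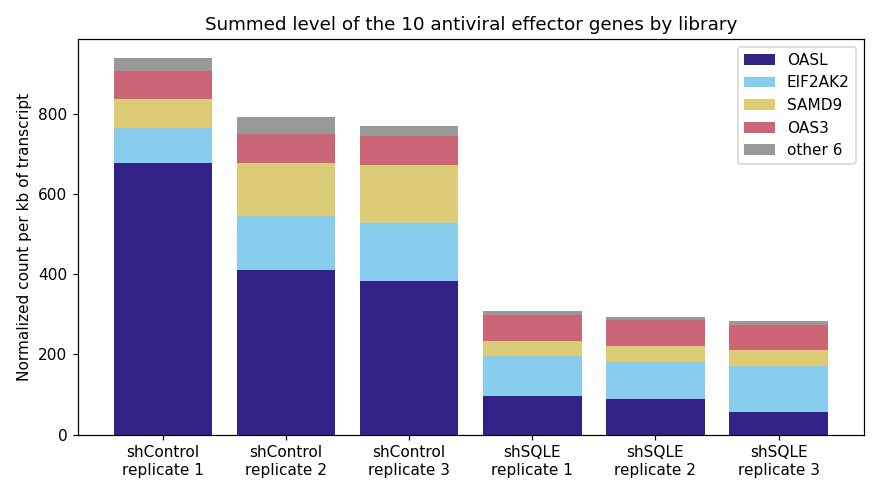
Stacked normalized counts per kb of canonical transcript (vertical axis from 0) of the 10 antiviral effector genes in each library, with OASL, EIF2AK2, SAMD9 and OAS3 shown singly and the other 6 together. The bars reach 770.3 to 940.3 in shControl and 284 to 308 in shSQLE, and OASL is the part that differs most.

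Summed over the 10 genes, the level per kb was 940.3, 792 and 770.3 normalized counts in control libraries 1 to 3 and, in turn, 308, 293 and 284 in the shSQLE replicates. OASL was the most abundant of the 10 in every control library, at 49.9% to 72.0% of the sum, and held 19.7% to 31.5% in shSQLE, where the mean level of EIF2AK2 (101 normalized counts per kb) was above that of OASL (80.9) with overlapping ranges. OASL, EIF2AK2, SAMD9 and OAS3 together held 94.7% to 97.4% of the sum in every library.

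The interferons themselves were hardly detected. Of 21 ligand genes, 15 had 0 counts throughout and 0 passed the filter, so the ligands were not tested in the main fit. IFNL1, a type III interferon, had 13, 10 and 9 counts in control libraries 1 to 3 and, in turn, 0 in each shSQLE library, which makes it at least 3.66-fold lower against a floor of 3 counts per library. IFNB1, the first type I interferon made on sensing of nucleic acid, had 6, 4 and 2 counts in shControl and 0, 0 and 1 in shSQLE. The ratio was 12.1 with an exact 95% interval of 1.79 to 516 that covers counting error only. IFNE had 5, 7 and 4 counts against 3, 4 and 7, and its groups overlapped. IFNL1 was counted in shControl only and was named after its values were seen, so no p-value is given for it. In a fit without a filter, with p adjusted over all genes with a count, IFNB1 had an adjusted p of 0.255 (edgeR's quasi-likelihood test).

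Of 17 receptors, JAK kinases, STATs and IRFs that were tested, 0 were past an adjusted p of 0.05 in edgeR's quasi-likelihood test, 7 were lower at an unadjusted p under 0.05, and DESeq2 called 2, STAT2 and IRF1. The count was 7 without shControl replicate 1, where 4264 of the 12570 genes tested were past the threshold. It was also 7 with GC content and length taken out, where 2185 of 12450 were. With all libraries, the median log2 fold change of the 17 genes was -0.35. STAT2, a part of the factor that binds the response element, was at -0.59 (standard error 0.13, adjusted p = 0.0554) and its groups did not overlap. IRF1, a transcription factor induced by interferons, was at -0.94 (standard error 0.22, adjusted p = 0.0713) and JAK2 at -0.72 (standard error 0.23). IRF9, the DNA-binding part of the same factor, had 12, 31 and 27 counts in shControl and 16, 21 and 15 in shSQLE, with overlapping groups. Of 8 brakes on interferon signalling that were tested, 0 were past the adjusted p (edgeR), 0 had an unadjusted p under 0.05 and 0 were called by DESeq2. Without shControl replicate 1, 1 was past the threshold, where 4264 of the 12570 genes tested were. USP18, itself an interferon-induced gene, had 31, 55 and 22 counts against 30, 36 and 26.

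Sensors of nucleic acids included several that fell. Of 13 sensors and adaptors tested, 4 were past the adjusted p and lower, as were 2.84% of all genes tested, and 0 were past it and higher, as were 0.369%. This list was written with earlier results of these data known, so nothing is read from the count of 4. That count was 9 without shControl replicate 1, where 4264 of the 12570 genes tested were past the threshold. It was 2 without shControl replicate 2 or 3, where 163 of 12539 and 211 of 12566 were. Without shSQLE replicates 1, 2 and 3 it was 0, 0 and 1, where 109 of 12573 to 12610 genes were. IFIH1 (MDA5), a sensor of long double-stranded RNA, fell from 170 ± 38.8 in shControl to 58.1 ± 5.04 normalized counts in shSQLE (SD, n = 3 each), with a log2 change of -1.55 and an SE of 0.21 (edgeR adjusted p = 0.00900). RIGI, the sensor that OASL acts on, fell from 24, 46 and 59 counts to 13, 5 and 11 (log2 fold change -2.13, SE 0.41, edgeR adjusted p = 0.0335). DHX58 (LGP2), of the same family, fell from 15, 24 and 24 counts to 1, 2 and 4 (edgeR adjusted p = 0.0110). The ratio was 9.05 with an exact 95% interval of 4.15 to 23.4 that covers counting error only. MAVS, the adaptor of these sensors, fell by 0.58 on the log2 scale (SE 0.10, edgeR adjusted p = 0.0240). IFIH1 kept its call in 3 of the 6 fits without 1 library, DHX58 in 4, and RIGI and MAVS in 1 each. RIGI and DHX58 had fewer than 10 counts in at least 1 shSQLE library and passed the filter on low counts through their control libraries. With at least 10 counts required in every library neither was tested, and the count of 4 was 2, where 305 of 11872 genes were past the threshold.

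**Figure D5:**
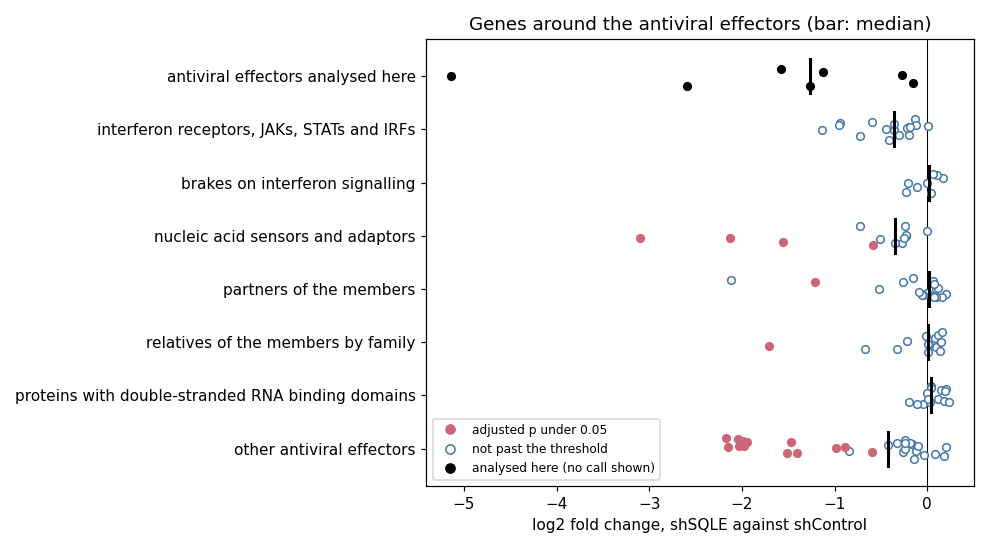
Log2 fold change of shSQLE against shControl for genes tested around the antiviral effectors, by list, with the effectors analysed here in black in the top row, genes past an adjusted p of 0.05 filled, the others open, and a bar at each median. The sensors and the other antiviral effectors hold 4 and 13 filled points, all below 0, of 13 and 29 genes. Of all genes tested, 2.84% were lower past the threshold and 0.369% higher, and the lists were written with earlier results of these data known. The partners and the relatives by family hold 1 filled point each. The receptors, JAK kinases, STATs and IRFs, the brakes and the double-stranded RNA binding proteins hold 0.

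Genes that work with the effectors, or belong to their families, were compared next. EIF2S1, the subunit of eIF2 that EIF2AK2 phosphorylates, was at 0.07 on the log2 scale (standard error 0.10, adjusted p = 0.842). Of the 18 partners tested, 1 was past the adjusted p and lower, as were 2.84% of all genes tested. The count was 7 without shControl replicate 1, where 4264 of 12570 genes were past it, and 0 without shSQLE replicate 1, where 109 of 12573 were. With all libraries the 1 partner was DNAJC3, a chaperone of the endoplasmic reticulum also described as an inhibitor of EIF2AK2. DNAJC3 fell from 1717 ± 277 in shControl to 742 ± 74.4 normalized counts in shSQLE (SD, n = 3 each). Its log2 change was -1.21 with an SE of 0.15 (edgeR adjusted p = 0.00591). CMPK2, a mitochondrial nucleotide kinase that overlaps RSAD2 head to head, had 11, 27 and 20 counts in shControl and 2, 6 and 5 in shSQLE (log2 fold change -2.12, standard error 0.45, adjusted p = 0.0506). It passed the filter on low counts through its control libraries alone.

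The other kinases of eIF2 were compared with EIF2AK2. EIF2AK3 (PERK), the kinase of the endoplasmic reticulum, was at -0.67 (standard error 0.15, adjusted p = 0.0630), whereas EIF2AK1 and EIF2AK4 were at 0.10 and 0.09 (standard errors 0.09 and 0.15), and EIF2AK2 at -0.27. The dynamin-like GTPases outside the MX pair, which serve membrane scission and mitochondrial or endoplasmic reticulum fusion, lay between -0.33 (DNM3) and 0.16 (ATL3), and 0 of them were past the adjusted p. SAMD9L, the paralog of SAMD9 next to it on chromosome 7, fell from 240 ± 74.0 in shControl to 73.3 ± 11.0 normalized counts in shSQLE (log2 fold change -1.71 with an SE of 0.26, edgeR adjusted p = 0.0142), beside -1.58 for SAMD9. The handling of reads with several hits is not given in the sources used here, and reads common to this pair could fall to either. SAMD9L kept its call in 2 of the 6 fits without 1 library. Of 14 other proteins with double-stranded RNA binding domains, 0 were past the adjusted p in edgeR's quasi-likelihood test, 0 were called by DESeq2 and 1 was higher at an unadjusted p under 0.05. The count was 5 without shControl replicate 1 and 3 with GC content and length taken out.

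Of 29 other interferon-induced antiviral genes that were tested, 13 were lower past the adjusted p and 0 higher, beside 2.84% and 0.369% of all genes tested. This list, too, was written with earlier results of these data known, so nothing is read from the count of 13. It was 7 without any 1 of the shSQLE libraries, where 109 of 12573 to 12610 genes tested were past the threshold. Without shControl replicate 2 or 3 it was 9, where 163 of 12539 and 211 of 12566 were. Without shControl replicate 1 it was 19, where 4264 of 12570 were. With at least 10 counts in every library it was 11, where 305 of 11872 were. The genes of this list with the smallest p were IFI44, HERC6, a ubiquitin ligase relative, and IFIT3, which binds other IFIT proteins, at log2 fold changes of -2.05, -1.99 and -2.17. ZC3HAV1, a zinc finger protein that binds viral RNA, was the gene whose profile over the 6 libraries was most like the mean profile of the 7 tested effectors, among 10820 genes with a mean of at least 50 normalized counts. Its log2 CPM, centred on its own mean, differed from that profile by a root mean square of 0.108 on the log2 scale. ZC3HAV1 fell from 2441 ± 178 in shControl to 883 ± 52.3 normalized counts in shSQLE (SD, n = 3 each). Its log2 change was -1.47 with an SE of 0.11. The gene was picked for its likeness to effectors chosen with this contrast known, so no p-value is given for it. The next in likeness were DRAXIN, TFPI2, TMEM50B and ZNF469, at 0.115, 0.125, 0.137 and 0.139. The effectors themselves lay further from their own mean profile, from 0.304 for SAMD9 and 0.312 for OAS1 to 1.08 for RSAD2. The 5 genes were picked as the nearest of 10820, and OAS1, MX1 and RSAD2 had fewer than 50 normalized counts. Nothing is therefore read from this difference.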

How the data were processed

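Poly(A) RNA of U2OS cells was sequenced as pairs of 151 bp in 3 shSQLE and 3 shControl libraries. Per the methods and the submitters' notes, the authors used fastp 0.20.0 for trimming, STAR 2.7.9a for alignment (hg38) and featureCounts 2.0 for counting. What they deposited is a table of raw counts per gene. The annotation release, strand setting and handling of reads with several hits are not given in the sources used here. Of 19937 genes, 19905 matched a symbol and GENCODE v44 (hg38), from which coordinates and canonical transcript lengths were taken.

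Counts were analysed with R 4.3.3 and edgeR 4.0.16. Genes were filtered with filterByExpr (minimum count 10), library sizes were scaled by TMM, and 12450 genes were fitted by the quasi-likelihood test on group alone (Benjamini-Hochberg, 0.05), after the code was tested on simulated data. A standard error is the absolute log2 fold change over the square root of F. Ratios of low counts carry exact Clopper-Pearson intervals at 95%. These intervals are taken on counts summed over the libraries of a group, so they cover counting error and not the spread among libraries. DESeq2 1.42.0, other scalings and filters, a replicate block and leaving out each library were alternatives. Offsets on GC content and length (mgcv 1.9.3) were added after seeing the data.

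The members, gene lists and the rule for named genes (all members, SQLE, up to 3 genes per list by p, named partners and relatives, and the 5 most similar profiles) were chosen with earlier results of these data known. IFNL1, IFNE, RIGI, FN1, COL1A1, DNM3 and ATL3 were named after their values were seen. Some genes that the rule names are not reported here.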

Additional observations from a re-analysis of the deposited data

How the results depend on the processing

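SQLE stayed lower and past the threshold in every alternative run, with log2 fold changes from -3.12 to -2.87 without 1 library. The 7 effectors tested kept their direction in each alternative that tested them, and their median ranged from -1.47 to -1.07 without 1 library and was -0.93 with at least 10 counts in every library, where 4 of them were left. The count of genes past the threshold depended on the libraries used. Against 400 in all (354 lower, 46 higher) it was 714 with DESeq2 (556 lower, 158 higher), 2185 with the GC content and length offsets (1296 lower, 889 higher), and between 109 and 4264 without 1 library (101 to 2300 lower, 4 to 1964 higher), where the highest value was that without shControl replicate 1 and the lowest those without any 1 shSQLE library. It was 163 without shControl replicate 2 and 211 without replicate 3. The number of effectors past the threshold was 3 and ranged from 1 to 5 without 1 library. It was 5 without shControl replicate 1, where 4264 of the 12570 genes tested were past it. It was 1, in each case OASL, without any 1 shSQLE library, where 109 of 12573 to 12610 genes tested were past the threshold. The number of pathway list genes past it was 19, 39 with the GC content and length offsets, and 7 to 49 without 1 library. The cause of these shifts was not tested. Deviations of libraries with the same replicate number correlated at 0.138, -0.433 and 0.543, and those with different numbers at -0.595 to 0.542. These values do not show whether the numbers pair the samples. A replicate block gave 396 genes. At this depth, OAS2, MX2, BST2 and the interferon ligands are limited by counts near the floor.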
